A study of Mus musculus with 5 samples.

Results

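The genes described here encode calcium-binding S100 proteins, annexins, galectins and the filament protein vimentin. They were chosen as a list of 10 gene symbols, with earlier results of these data known. Every probe set on the array that the platform's annotation assigned to a single one of these symbols was taken. This gave 17 probe sets for 9 of the 10 genes, out of 18193 genes on the array with a single symbol. The exception was S100a11, whose only probe set also matches other gene symbols, so no value is given for it.

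Splenic CD4 T cells of BALB/c mice were profiled on Affymetrix arrays, and each of the 5 groups had 1 array. These were naive CD4 T cells, control effector Th1 cells, effector Th1 cells labelled Rap, effector Th1 cells labelled TOFA, and memory Th1 cells. The labels attach a 5-day Th1 culture, with IL-2 at 15 ng/ml and IL-12 at 10 ng/ml, to all 5 samples, but call only the effector cells cultured. TOFA blocks acetyl-CoA carboxylase, which starts fatty acid synthesis and is named as Acc1 in the study's title. The label Rap is not expanded, and doses, the source of the memory cells, sorting, age and pooling of animals were not stated in the labels. No group had a second array, so no test between groups was possible, and no error between cultures or animals can be given. A gene was counted as higher or lower in these arrays from a 2-fold difference. Differences are on the log2 scale, from quantile normalized signals raised to a floor of 43.4 where they lay under it.

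The S100 proteins are small proteins that change shape on binding calcium and then attach to partner proteins. Annexins bind membrane phospholipids in the presence of calcium, and several are docked by S100 proteins: S100a10 joins Anxa2 in a stable complex, and S100a11 can bind Anxa1. Galectins bind sugar chains on cell surface proteins, and vimentin forms the main intermediate filament of lymphocytes and of mesenchymal cells. In T cells, S100a4, S100a6, Anxa2 and Lgals1 are commonly found higher in activated or memory cells than in naive cells. The same genes, with Lgals3 and Vim, are also strongly expressed by monocytes and macrophages, so markers of such cells are given beside the results.

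RefSeq promoter entries (build GRCm38.p6) were at hand for 8 of the 10 genes, 7 of them measured. The 250 bases before the annotated start are shown for the 4 genes among these that hold the letters TATAAA, because this group spans the different patterns described next: S100a4 and Anxa1 had their highest signal in the memory array, Anxa2 and Vim in the control effector array. They are printed 5′ to 3′ on the gene's strand, with TATAAA and TGANTCA in capitals. The S100a4 stretch lies at chr3:90603520-90603769 on the plus strand, that of Anxa1 at chr19:20390672-20390921 on the minus strand, that of Anxa2 at chr9:69453433-69453682 on the plus strand and that of Vim at chr2:13574061-13574310 on the plus strand.
S100a4: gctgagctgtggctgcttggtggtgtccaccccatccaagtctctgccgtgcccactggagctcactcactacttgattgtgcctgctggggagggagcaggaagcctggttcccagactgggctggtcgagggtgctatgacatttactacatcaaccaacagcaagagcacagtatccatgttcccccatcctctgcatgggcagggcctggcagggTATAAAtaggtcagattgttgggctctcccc
Anxa1: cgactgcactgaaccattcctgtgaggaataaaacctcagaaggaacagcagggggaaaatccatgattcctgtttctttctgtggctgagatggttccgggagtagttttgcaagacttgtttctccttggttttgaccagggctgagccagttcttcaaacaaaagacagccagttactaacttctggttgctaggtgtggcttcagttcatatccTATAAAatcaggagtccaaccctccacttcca
Anxa2: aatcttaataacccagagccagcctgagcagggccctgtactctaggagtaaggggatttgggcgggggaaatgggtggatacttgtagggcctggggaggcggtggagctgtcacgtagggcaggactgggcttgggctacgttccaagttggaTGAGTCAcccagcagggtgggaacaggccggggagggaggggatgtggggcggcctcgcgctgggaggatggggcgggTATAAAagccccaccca
Vim: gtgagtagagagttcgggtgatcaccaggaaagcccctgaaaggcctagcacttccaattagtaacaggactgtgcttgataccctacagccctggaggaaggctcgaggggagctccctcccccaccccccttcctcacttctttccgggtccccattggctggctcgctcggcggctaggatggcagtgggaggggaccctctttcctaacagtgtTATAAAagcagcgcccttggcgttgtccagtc
TATAAA was searched on both strands, and began 31 bases before the start in S100a4, 32 in Anxa1, 17 in Anxa2 and 32 in Vim. Of all 32851 promoter entries of the same length, 12.4% held it. The letters TGANTCA were found in Anxa2, beginning 95 bases before the start, and in S100a11, against 6.75% of all entries. The motifs did not overlap each other in these stretches and were chosen after the sequences had been seen. The stretches of S100a6, S100a13 and Lgals3 held neither. A match here is a description of letters, not of a bound site.

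The T cell identity of all 5 arrays was visible in 10 of 10 measured T cell markers, all above the floor on every array. Their summed signal lay between 55777 in the TOFA array and 88076 in the naive array. Other spleen cells were also visible, and unevenly. Of 16 measured myeloid markers, 15 were above the floor in the naive array and 15 in the memory array, against 5 in the control effector, 3 in the Rap and 7 in the TOFA array. Their summed signal was 8950 in naive and 125378 in memory, against 331, 214 and 573 in control effector, Rap and TOFA. B and plasma cell markers were summed to 40432 in naive and 60590 in memory, and to between 1996 and 2710 in the 3 effector arrays. Dendritic cell markers reached 60090 in memory against 9476 in naive and 1183 to 2459 in the effector arrays, and erythroid and platelet markers 7794 in memory against 363 to 424 in the other 4 arrays. In bulk RNA, fewer cells of a type and less RNA per cell cannot be told apart.

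**Figure D1:**
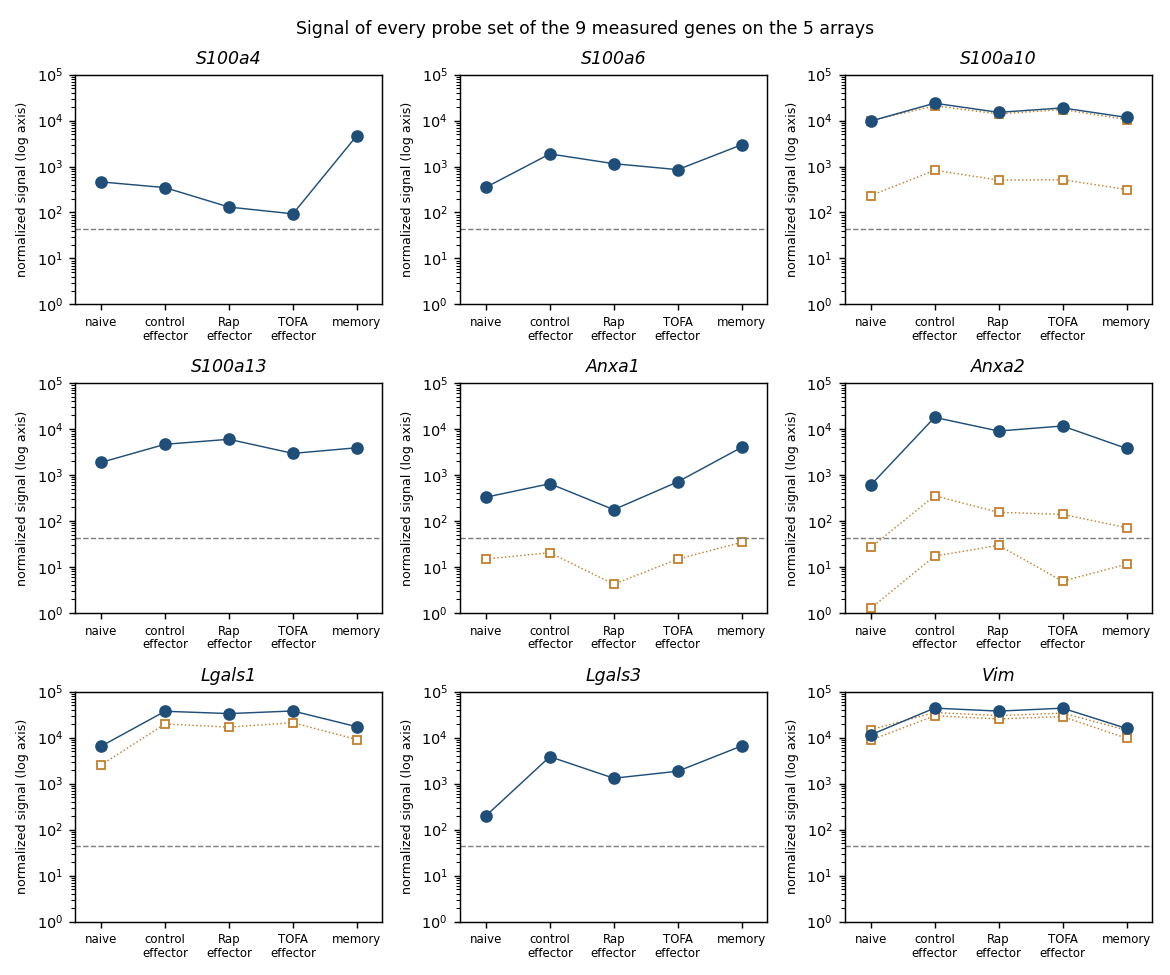
Normalized signal (log axis) of every probe set of the 9 measured genes on the 5 arrays; filled circles are the probe set with the highest mean, open squares the others, lines only join points of 1 probe set, and the dashed line is the floor of 43.4. Each point is 1 array without replicates; S100a4, S100a6, Anxa1 and Lgals3 peak in the memory array, and 7 of the 9 genes are lowest in the naive array.

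Across the 5 arrays the 9 genes followed a few patterns. The naive array had the lowest signal for 7 of them, the exceptions being S100a4, lowest in TOFA, and Anxa1, lowest in Rap. The memory array was highest for 4 genes (S100a4, S100a6, Anxa1 and Lgals3), the control effector array for 3 (S100a10, Anxa2 and Vim), the Rap array for S100a13 and the TOFA array for Lgals1. From the highest to the lowest array, the range was 50.4-fold for S100a4, 33.2-fold for Lgals3, 29.9-fold for Anxa2 and 22.7-fold for Anxa1. It was 8.42-fold for S100a6, 5.85-fold for Lgals1, 3.81-fold for Vim, 3.18-fold for S100a13 and 2.44-fold for S100a10.

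The first comparison set cultured Th1 cells without inhibitor against naive cells. Most of them were higher in the control effector array: 7 of 9 by at least 2-fold and none lower. Over all 13070 genes compared, 15.9% were at least 2-fold higher, 11.4% lower and 27.3% at least 2-fold apart in either direction. The median difference of the 9 genes was 1.93, against 0.04 over all genes. Where a gene had several probe sets, their differences spread with an SD of 0.55 in this comparison. This probe set SD covers only disagreement among probe sets read on the same arrays. It holds no error between arrays, cultures or animals.

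Among the annexins, Anxa2, which links membranes to the actin skeleton, had signals of 602 in naive, 17963 in control effector, 9058 in Rap, 11663 in TOFA and 3785 in memory cells. The naive array was far below the other 4, and control effector against naive was a 29.9-fold difference (4.90), the 66th largest of all genes that were higher. Its second usable probe set was under the floor in naive cells and at 354 in control effector cells, at least 8.17-fold higher, and the remaining one was under the floor on all arrays. When the 3 Anxa2 probe sets were averaged, the difference was 2.64. Anxa1, whose protein restrains inflammation and phospholipase activity, had signals of 329 in naive, 648 in control effector, 177 in Rap, 711 in TOFA and 4012 in memory cells. Its control effector and naive signals were 1.97-fold apart, just under the threshold, and its other probe set was under the floor on all 5 arrays.

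Both galectins stood higher after culture. Lgals3, a galectin found in cytoplasm and outside the cell, had signals of 198 in naive, 3842 in control effector, 1307 in Rap, 1856 in TOFA and 6586 in memory cells. Control effector was 19.4-fold above naive (4.28), the 137th largest of the genes that were higher. Lgals1, whose secreted protein can trigger death of activated T cells, had signals of 6481 in naive, 37357 in control effector, 33259 in Rap, 37905 in TOFA and 17203 in memory cells. The 3 effector arrays lay close together for Lgals1, and control effector was 5.76-fold above naive, or 7.79-fold on its other probe set.

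Of the S100 genes, S100a6, which encodes the small calcium-binding protein calcyclin, had signals of 353 in naive, 1877 in control effector, 1152.5 in Rap, 855 in TOFA and 2974 in memory cells, with control effector 5.32-fold above naive. S100a13, a protein involved in the release of growth factors without a signal peptide, had signals of 1882 in naive, 4663 in control effector, 5990.1 in Rap, 2955 in TOFA and 3924 in memory cells. Control effector was 2.48-fold above naive for S100a13, and TOFA and memory lay between them. S100a10, the partner of Anxa2, had signals of 9743 in naive, 23806.5 in control effector, 15049.7 in Rap, 18795 in TOFA and 11701 in memory cells. Its 3 probe sets were 2.44-fold, 3.56-fold and 2.12-fold above naive in control effector cells. S100a4, a protein that binds non-muscle myosin and is linked to cell movement, was the only gene of the 9 below its naive level. Its signal was 463 in naive and 348 in control effector cells (-0.41). This difference was smaller than the probe set SD of 0.55. S100a4 has a single probe set, however, so its own probe set spread is not known.

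Vim had signals of 11481 in naive, 43761 in control effector, 37628 in Rap, 43612 in TOFA and 15835 in memory cells. The 3 effector arrays formed a high group and naive and memory a low one. Control effector was 3.81-fold above naive, and 2.37-fold and 3.39-fold on the other probe sets. In all, 6 of 6 other probe sets that could be compared went the same way as the brightest one.

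Markers of other cells differed by list. Of 15 myeloid markers compared, 9 were at least 2-fold lower in control effector than in naive cells and none higher, as were 10 of 11 B and plasma cell markers. Among the myeloid markers that were lower, Lyz1, Lyz2 and Tyrobp stood at 2054, 811 and 346 in naive cells. All of these were under the floor in control effector cells. The macrophage genes Adgre1 and Cd68, in contrast, were dim on both arrays, at 59.8 and 64.9 in control effector and 66.6 and 64.3 in naive cells. Of 5 CD8 T and NK cell markers compared, 2 were lower and 1 higher, Klrk1, an activating receptor, at 1486 against 64.5. Erythroid and platelet markers had a median of 0.20, with 1 of 4 higher (Epor, 158 against 50.8), and stromal and endothelial markers a median of 0.09, with 1 of 5 lower. The part of these cells in the differences of the 9 genes was not tested. All 11 cell division genes were at least 2-fold higher, and naive T cell markers were lower in 7 of 8 cases, with Klf2, a transcription factor of resting T cells, at 934 against 14239.

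**Figure D2:**
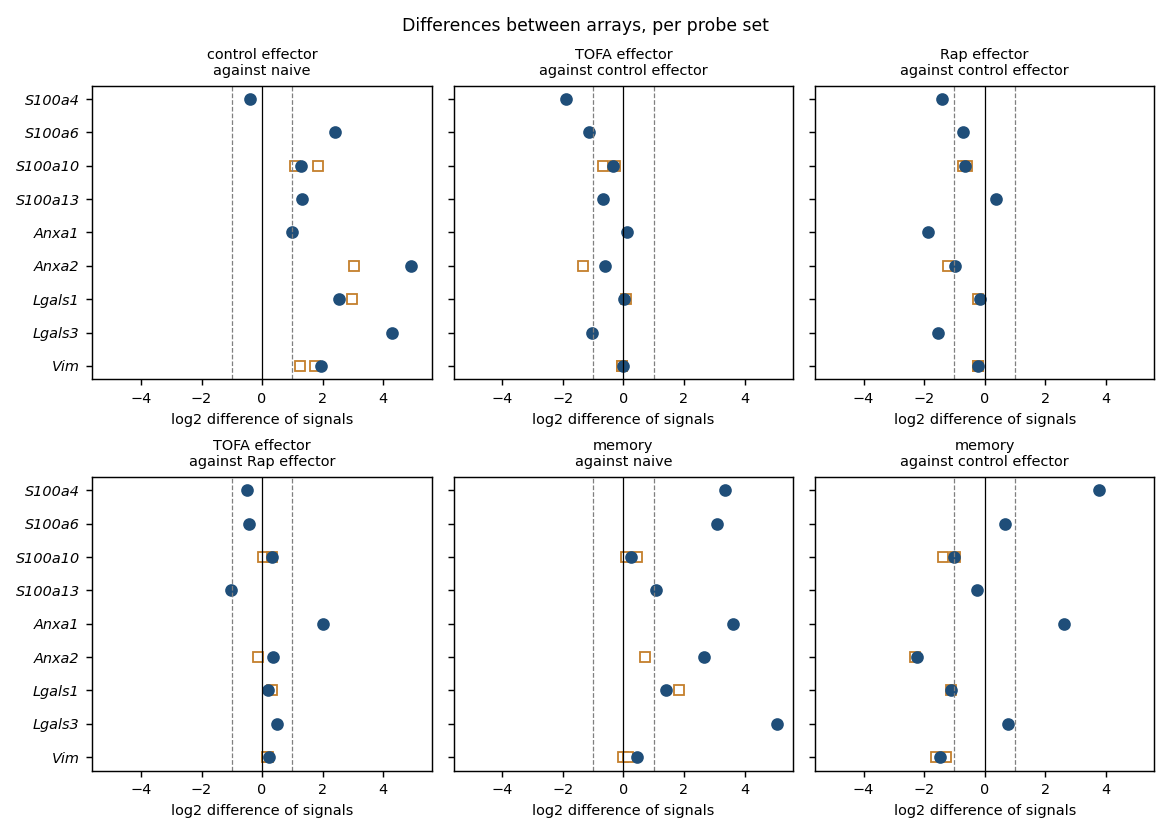
Log2 difference between signals for the 6 comparisons and the 9 genes; filled circles are the brightest probe set, open squares the others where at least 1 array was above the floor, and dashed lines mark 2-fold. In control effector against naive 7 circles pass the right line, while in TOFA and in Rap against control effector 3 circles pass the left line and none the right.

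The next comparison addressed the acetyl-CoA carboxylase inhibitor, by setting TOFA against control effector cells. The 9 genes were mostly lower in the TOFA array: 7 of 9 lay below 0, though Vim only barely (-0.005). At least 2-fold lower were 3 (S100a4, S100a6 and Lgals3), and none was higher by that much. Over all 12850 genes compared, 2.15% were at least 2-fold lower, 2.47% higher and 4.62% apart in either direction. At 1.5-fold, 5 of the 9 genes were lower, against 8.2% of all genes. The median of the 9 genes was -0.62, against 0.01 over all genes, and the probe set SD was 0.31.

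S100a4 stood at 93.6 in TOFA against 348 in control effector cells, 3.71-fold lower, the 26th largest of all genes that were lower. The TOFA signal was not far above the floor, and with the floor at the 60th percentile the difference was -1.21. S100a6 was 2.20-fold lower, the 172nd largest, and Lgals3 2.07-fold lower, the 244th largest. These 3 genes have a single probe set each, so no other probe set bears on them. S100a13 was 1.58-fold lower and Anxa2 1.54-fold lower, or 2.54-fold on the second Anxa2 probe set. S100a10 had a difference of -0.34, with -0.68 and -0.27 on its other probe sets.

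Anxa1, Lgals1 and Vim differed little between TOFA and control effector cells. Anxa1 had a difference of 0.13 and Lgals1 of 0.02, and Vim stood at 43612 against 43761. Each difference was smaller than the probe set SD, which holds no error between arrays. The direction for Lgals1 turned with the values as deposited (-0.11).

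In Rap against control effector cells, 8 of the 9 genes lay below 0, and 3 were at least 2-fold lower: Anxa1, Lgals3 and S100a4. None was at least 2-fold higher. Over all 12851 genes compared, 3.91% were at least 2-fold lower, 1.82% higher and 5.73% apart in either direction. At 1.5-fold, 6 of the 9 genes were lower, against 11% of all genes. The median of the 9 genes was -0.70, against 0.00 over all genes, and the probe set SD was 0.32. Of the 8 genes below 0, Lgals1 (-0.17) and Vim (-0.22) lay within that SD. The TOFA and Rap comparisons share the control effector array and are not independent of each other.

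Anxa1 stood at 177 in Rap against 648 in control effector cells, 3.67-fold lower, the 64th largest of the genes that were lower. Averaged with its probe set under the floor, the difference was -0.94, under 2-fold, and its difference between TOFA and Rap was 1.01. Lgals3 was 2.94-fold lower, the 135th largest, and S100a4 2.65-fold lower, the 185th largest. Anxa2 was 1.98-fold lower on its brightest and 2.29-fold lower on its second probe set. S100a6 was 1.63-fold and S100a10 1.58-fold lower, with 1.64-fold and 1.51-fold on the other S100a10 probe sets. Lgals1 and Vim were 1.12-fold and 1.16-fold lower, and S100a13, at 5990.1 against 4663, was the only gene above its control effector level (1.28-fold).

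TOFA and Rap cells could be set against each other without the control effector array. Of the 9 genes, Anxa1 was 4.03-fold higher in TOFA than in Rap cells (711 against 177), the 47th largest of all genes that were higher, and S100a13 was 2.03-fold lower (2955 against 5990.1), the 162nd largest of those that were lower. Over all 12802 genes compared, 3.28% were at least 2-fold higher, 1.35% lower and 4.63% apart in either direction. The other 7 genes were under 2-fold apart: S100a4 was 1.40-fold and S100a6 1.35-fold lower in TOFA, and Lgals3 was 1.42-fold, Anxa2 1.29-fold, Vim 1.16-fold and Lgals1 1.14-fold higher, with S100a10 at a difference of 0.32. The second Anxa2 probe set went the other way, 1.11-fold lower. The probe set SD was 0.28.

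Myeloid, B and plasma cell and dendritic cell markers had lower summed signals in each of the 3 effector arrays than in naive or memory. CD8 T and NK cell markers did not, with sums of 1857, 2138 and 1726 in control effector, Rap and TOFA against 919 in naive and 1844 in memory. Among the myeloid markers, Lyz2, Lyz1, Fcgr3, Tyrobp, Itgam, Mpo, S100a8 and S100a9 were under the floor in all 3 effector arrays. Csf1r (84.0, 98.6 and 126), Cd68 (64.9, 61.0 and 70.3) and Spi1 (54.7, 54.1 and 43.9) were above it in all 3, and Cd14 (74.4) and Fcer1g (59.1) in TOFA. With the values as deposited, however, Csf1r was represented by another probe set, at or under the floor in all 3 effector arrays. In TOFA against control effector, 1 of 8 myeloid markers compared was at least 2-fold higher, Mpeg1 (155 against 7.47, the last under the floor). Of 6 dendritic cell markers, H2-Ab1, an MHC class II gene, was at least 2-fold lower in TOFA (572 against 1576). It was also lower in Rap (658), while H2-Aa, another MHC class II gene, was higher in Rap (799.9 against 294), as was the B cell gene Ms4a1 (431 against 197). The platelet gene Pf4 was lower in Rap, where it lay under the floor. The part of such cells in the differences among effector arrays was not tested. No cell division gene passed 2-fold in either comparison, and their summed signals were 125969, 131595 and 111032 in control effector, Rap and TOFA.

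Memory cells were then set against naive cells. All 9 genes lay above their naive level, 7 by at least 2-fold. Over all 13082 genes compared, 12.6% were at least 2-fold higher, 4.14% lower and 16.7% apart in either direction. The median of the 9 genes was 2.65, against -0.05 over all genes, and the probe set SD was 0.39. Lgals3 was 33.2-fold higher (6586 against 198), Anxa1 12.2-fold (4012 against 329), S100a4 10.2-fold (4714 against 463) and S100a6 8.42-fold (2974 against 353). They ranked 114th, 260th, 327th and 386th among the genes that were higher.

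Anxa2 was 6.29-fold higher in memory than in naive cells, but at least 1.65-fold on its second probe set. As means of all their probe sets, Anxa2 stood at 1.13 and Anxa1 at 1.80. Lgals1 was 2.65-fold higher, or 3.58-fold on its other probe set, and S100a13 2.08-fold. With the values as deposited S100a13 stood at 0.90, under 2-fold. S100a10 and Vim had differences of 0.26 and 0.46. The other Vim probe sets gave -0.03 and 0.14, within the probe set SD, while the brightest lay just over it. Of the 6 other probe sets compared, 5 went the same way as the brightest.

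Myeloid markers were also higher in memory cells. Of 16 myeloid markers compared in memory against naive, 13 were at least 2-fold higher and 1 lower, with a median of 4.83. The macrophage genes Cd68 and Adgre1 stood at 7705 and 7450 in memory against 64.3 and 66.6 in naive cells, and Lyz2, a lysozyme of macrophages and neutrophils, at 14766 against 811. Of 9 dendritic cell markers 6 were at least 2-fold higher, of 11 B and plasma cell markers 8 were higher, and of 6 erythroid and platelet markers 5 were higher. Stromal and endothelial markers were higher in 5 of 6 cases (median 1.82), with Kdr, an endothelial receptor, at 685 against 68.8. CD8 T and NK cell markers were higher in 2 of 5 cases, Klrk1 at 669.7 against 64.5 and Cd8a at 370.5 against 163. T cell markers had a median of -0.54, with 1 of 10 at least 2-fold lower. The part of other cell types in the memory values of all the genes described was not tested. Genes of activated and memory T cells did not differ one way: 6 of 15 were at least 2-fold higher and 1 lower, Tagln2 (1228 against 4890), with 9 above and 6 below 0 and a median of 0.13. Among those that were higher, Cd44, an adhesion receptor of activated and memory T cells, stood at 9058 against 1624, and Cxcr3, a chemokine receptor of Th1 cells, at 4799 against 432.

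**Figure D3:**
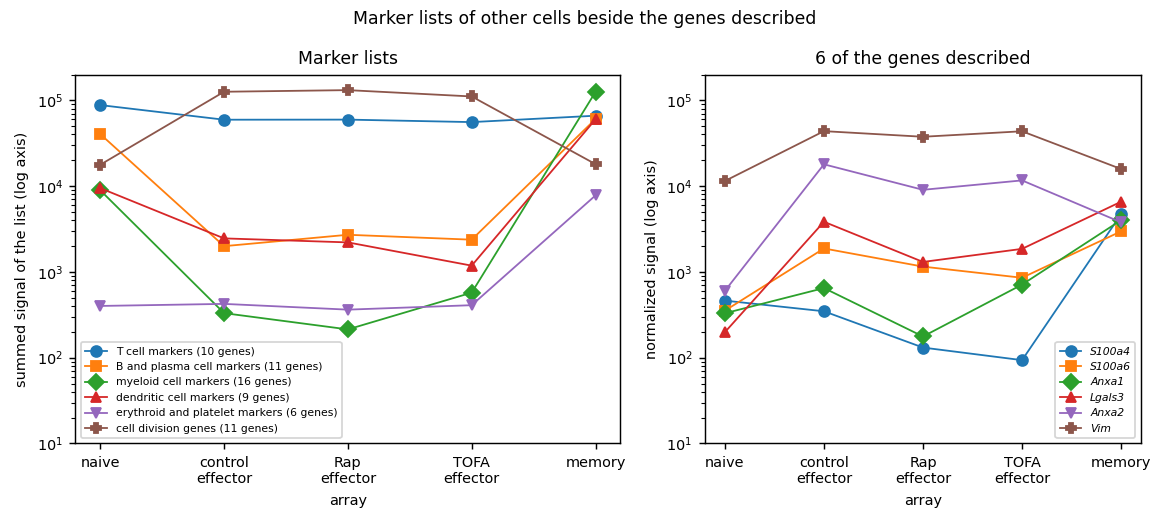
Left, summed signal (log axis) of 6 marker lists, counting only genes above the floor, on each array; right, normalized signal (log axis) of S100a4, S100a6, Anxa1, Lgals3, Anxa2 and Vim on the same arrays. Each point is 1 array, and levels are to be compared between arrays within a line. The myeloid sum is 125378 in memory and 214 to 573 in the effector arrays, while Anxa2 and Vim are higher in the effector arrays than in memory.

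Against control effector cells, the memory array split the genes. S100a4 and Anxa1 were at least 2-fold higher in memory cells, and Anxa2, Vim, Lgals1 and S100a10 at least 2-fold lower. Over all 13326 genes compared, 14.5% were at least 2-fold higher, 14.1% lower and 28.6% apart in either direction. The median of the 9 genes was -0.25, against -0.03 over all genes. With the values as deposited the median of all genes moved from -0.03 to 0.18, and the split over all genes from 1932 higher and 1873 lower to 2601 and 1453; for memory against naive it moved from 1645 and 542 to 2075 and 344. All 6 genes kept their side of the threshold with those values.

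S100a4 was 13.6-fold higher in memory than in control effector cells (3.76) and Anxa1 6.19-fold (2.63), ranking 269th and 570th among the genes that were higher. Anxa2 was 4.75-fold lower, or 4.94-fold on its second probe set, and as means of probe sets Anxa1 and Anxa2 stood at 1.31 and -1.52. Vim was 2.76-fold lower, with 2.42-fold and 3.07-fold on the others. Lgals1 was 2.17-fold lower and S100a10 2.03-fold lower, with 2.62-fold and 1.99-fold on the other S100a10 probe sets. Lgals3, S100a6 and S100a13 were under 2-fold apart, with differences of 0.78, 0.66 and -0.25. The probe set SD was 0.53, and 6 of 6 other probe sets compared went the same way as the brightest. Myeloid markers were at least 2-fold higher in 13 of 16 cases, and all 11 B and plasma cell markers were higher. Activated and memory T cell markers were at least 2-fold higher in 8 of 15 cases and lower in 2, with a median of 1.24. Naive T cell markers were at least 2-fold higher in 4 of 8 cases and lower in 0. S100a4 and Anxa1 thus lay the same way as most called genes of these T cell lists and of the lists of other cells. The 4 genes that were lower lay the other way. The part of other cell types in these differences was not tested. All 11 cell division genes were at least 2-fold lower in memory cells, with a median of -4.55.

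The order of the arrays can be read for each gene by the steps between neighbours. For S100a4, memory stood 10.2-fold above naive, naive and control effector were 1.33-fold apart, control effector stood 2.65-fold above Rap, and Rap and TOFA were 1.40-fold apart. For Lgals3, memory and control effector were 1.71-fold apart, control effector stood 2.07-fold above TOFA, TOFA and Rap were 1.42-fold apart, and Rap stood 6.59-fold above naive. For Anxa1, memory stood 5.64-fold above TOFA, and every further step, from TOFA to control effector, naive and Rap, was under 2-fold. For Anxa2, the effector arrays followed each other by steps of 1.54-fold and 1.29-fold, and the steps down to memory and naive were 2.39-fold and 6.29-fold. For S100a6, the step from TOFA to naive (2.42-fold) was the only one past 2-fold. No step between neighbours reached 2-fold for S100a10 and S100a13, while Lgals1 had a step of 2.65-fold from memory to naive and Vim one of 2.38-fold from Rap to memory.

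The S100a genes lie on mouse chromosome 3, though not all close together, and the measured ones can be read in their genomic order. The RefSeq gene table (GRCm38.p6) lists 15 of them there, 12 of which had a value. S100a1 and S100a13 overlap at one end of the row, and both were lower in TOFA than in Rap cells, by 2.57-fold and 2.03-fold. S100a1, a calcium sensor best known from muscle, was also at least 11.4-fold above naive in control effector cells (493 against a signal under the floor), and whether RNA of one of the overlapping genes reached the other's probes was not tested. S100a4 and S100a6 are separated by S100a5 alone, whose signal was at most 75.5 on any array. S100a4 and S100a6 were both highest in memory and both lower in TOFA, but S100a6 was 5.32-fold above naive in control effector cells where S100a4 had a difference of -0.41. S100a8 and S100a9, which together form the calprotectin of neutrophils and monocytes, stood at 2917 and 1693 in naive and 6857 and 4239 in memory cells, and under the floor in all 3 effector arrays.

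**Figure D4:**
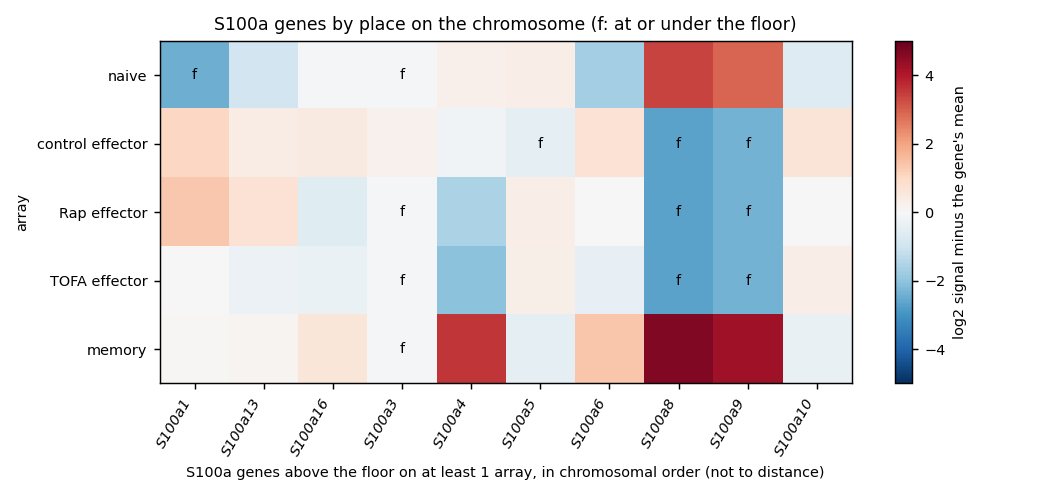
Log2 signal of each S100a gene minus its mean over the 5 arrays (colour, red above and blue below the mean), for genes above the floor on at least 1 array, in chromosomal order and not to distance; f marks a signal at or under the floor, and each cell is 1 array. S100a4, S100a6, S100a8, S100a9 and S100a16 are highest in memory, S100a16 only narrowly (186 against 166 in control effector). S100a8 and S100a9 are marked f in all 3 effector arrays.

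The remaining genes of the same families, from lists drawn up with results of these data already known, included many dim members, so that counts in these small lists shifted with the floor. Of 9 other measured S100 genes, S100a1 was at least 2-fold higher and S100a8 and S100a9 lower after culture (1 and 2 genes), and 1 was lower in TOFA (S100a1) and 1 in Rap (S100a16, 79.8 against 166) than in control effector cells. In memory against naive cells, 3 of 5 compared were higher.

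Of 9 other measured annexin genes, Anxa4 and Anxa9 were at least 2-fold above naive in control effector cells, Anxa4 at 1058 against 139. None passed 2-fold in TOFA or Rap against control effector, the largest difference being -0.87 for Anxa4 in Rap. In memory against naive cells 4 of 6 were higher: Anxa3 (483 against 45.5), Anxa4 (1424 against 139), Anxa5, which binds phosphatidylserine (6519 against 2798), and Anxa9. Anxa6 had signals of 960.2 in naive, 1681 in control effector and 1033 in memory cells, and Anxa7 lay between 1886 and 3831 on all arrays.

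Of 7 other measured galectin genes, Lgalsl was 694 in control effector against 167 in naive cells and Lgals7 was at least 3.35-fold higher, while Lgals8 was lower (706 against 1662). No other galectin gene passed 2-fold in TOFA against control effector. In Rap against control effector, Lgals7 was lower (44.7 against 145) and Lgals2 was higher (87.0 against a signal under the floor), although Lgals2 did not pass 2-fold with the values as deposited. Lgals9, a ligand of inhibitory receptors, had signals of 913 in naive, 641 in control effector, 584 in Rap, 977 in TOFA and 847 in memory cells, all within 2-fold of each other. Among the other intermediate filament genes, Lmnb1, a lamin of the nuclear envelope, stood highest in the effector arrays. Its signal was 3542.5 in control effector, 4645 in Rap and 3155 in TOFA, against 427 in naive and 570 in memory cells. Desmin, peripherin and nestin, relatives of Vim in muscle and neurons, were at most 93.9 on any array.

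Plectin, which ties vimentin to other filaments, lay the other way from Vim: Plec stood at 2996 in naive, 1246 in control effector, 1721 in Rap, 1298 in TOFA and 2424 in memory cells. Myh9, the non-muscle myosin chain bound by S100a4, likewise stood at 25060 in naive and 8666 in control effector cells. Myh10, another non-muscle myosin chain, went the other way, at 71.4 in naive, 666 in control effector and 74.7 in memory cells. Ahnak, a giant scaffold protein bound by the complex of S100a10 and Anxa2, had signals of 1643 in naive, 2322 in control effector, 1974 in Rap, 1952 in TOFA and 5475 in memory cells. Fpr2, a receptor for Anxa1 found on myeloid cells, stood at 2699.6 in memory cells and at most at 70.8 on the other arrays. Ager, a receptor for several S100 proteins, was lower in memory (under the floor) than in naive cells (247). Lgals3bp, a secreted partner of galectins, stood at 506 in control effector, 1048 in Rap and 1012 in TOFA cells, both at least 2-fold higher. Of 17 partners and receptors measured, 1 was higher and 5 lower in control effector cells against naive, and 4 were higher and 2 lower in memory against naive.

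Genes whose pattern over the 5 arrays was most like that of S100a4 were sought by the root mean square difference of log2 signals, each gene centred on its own mean. Of 13481 genes, Tmem86a (0.37), Alox5ap (0.44), Myadm (0.44), Epas1 (0.50) and H2-Ab1 (0.50) were closest, against a median of 2.01 over all genes. Tmem86a had signals of 282 in naive, 163 in control effector, 61.7 in Rap, 66.6 in TOFA and 1586 in memory cells. Alox5ap, an activator of leukotriene synthesis in myeloid cells, had 149 in naive, 63.6 in control effector, 1663 in memory and values under the floor in Rap and TOFA cells. The mean profile of the 9 genes was most like those of Pdgfb (0.07), Tpd52 (0.10), Coprs (0.11), Spire1 (0.14) and Niban2 (0.15), against a median of 0.89. Of these, Tpd52 was the only one with signals well above the floor on every array, at 784 in naive, 3199 in control effector, 1776 in Rap, 2303 in TOFA and 3308 in memory cells.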

How the data were processed

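Each of the 5 samples was 1 Affymetrix array, and samples were grouped by the cell subtype in the labels. Per the submitters' processing notes, GCOS and Affymetrix Expression Console were used; their versions were not stated. The authors deposited linear signal intensity per probe set, with each array scaled to a mean of 500.003 after trimming 2% from each end. After 64 control probe sets were set aside, 45037 were quantile normalized, since the deposited medians spanned 0.66 in log2 units. Signals under the 40th percentile (43.4) were raised to it, and genes under it in both arrays were not compared. The platform's 2016 annotation gave 1 symbol to 34945 probe sets, several to 932 and none to 9160. Each of 18193 genes was represented by its brightest probe set (highest mean log2 of floored signal), 14522 of them above the floor on at least 1 array. With 1 array per group no test was made, and precision is limited by there being 1 array. The calling steps were checked on simulated data for bright genes only, and not at a 2-fold difference or for dim genes.

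The genes named were all members of the list described, up to 4 per related list or marker list with the largest differences, a few fixed genes (among them Cd44, Klf2, Ahnak, Plec, Lmna, S100a8 and S100a9) and the 5 genes of most like pattern, predicted genes left out; Lyz2, Fcgr3, Tyrobp, Adgre1, Cd68, H2-Aa, Ms4a1, Pf4, Cxcr3, Csf1r, Spi1, Cd14, Fcer1g, Lyz1, Itgam, Mpo, Klrk1, Epor, Kdr, Cd8a, Tagln2, Lmnb1, S100a5, Lgals9 and dim relatives were named after their values were seen. The members and lists were chosen with earlier results of these data known. Python 3.11.15, numpy 2.4.6 and pandas 2.3.3 were used. The alternatives were the values as deposited, other floors, an added constant, the mean of probe sets, dropping probe sets whose names mark possible cross-matching, a 1.5-fold threshold and, chosen after seeing the data, normalization over the 3 effector arrays alone.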

Additional observations from a re-analysis of the deposited data

How the results depend on the processing

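Of 350 recomputed differences of the 9 genes, 340 moved by less than the probe set SD of their comparison, 10 moved by more and 0 that had passed 2-fold changed sign. A 2-fold call was lost in 2 of them: Anxa1 in Rap against control effector cells as a mean of its probe sets (-0.94), and S100a13 in memory against naive cells with the values as deposited (0.90). No call was gained at 2-fold. Of 45 recomputed counts of genes past the threshold, 43 stayed within 1.5 times. At 1.5-fold, 5 genes were lower in TOFA and 6 in Rap against control effector cells, where 8.2% and 11% of all genes were lower. Normalization over the 3 effector arrays alone, chosen after seeing the data, left the counts of 3, 3 and 2 in the comparisons among effector cells. The moved values were 4 of Anxa1 and 4 of Anxa2 as means that include probe sets under the floor, and S100a4 in TOFA against control effector cells with the floor at the 60th percentile (-1.21) or an added constant (-1.51). No paired analysis was possible because each group has 1 array. Leaving out a replicate was likewise not possible. Signals near the floor limit S100a4 in the Rap and TOFA arrays, and S100a4, S100a6, S100a13 and Lgals3 rest on a single probe set each.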
